A study of Mus musculus with 12 samples.

Results

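Ccr7 and 8 further genes that mark mature, migrating dendritic cells (Ccl17, Ccl22, Fscn1, Marcksl1, Cacnb3, Cd83, Socs2 and Il4i1) were followed by symbol through an RNA-seq study of mouse splenic type 2 conventional dendritic cells (cDC2). These 9 genes were all found among the 55322 genes of the deposited table. Each of 4 groups had 3 libraries. CLP-cDC2 and CDP-cDC2 were the splenic progeny of common lymphoid progenitors (CLP) and common dendritic cell progenitors (CDP) from wild-type C57BL/6J (CD45.2+) donors, given by injection into the marrow of B6.SJL (CD45.1+) recipients, whose own cells carry the other CD45 allele. L-cDC2 (tdTomato+) and M-cDC2 (tdTomato-) were the reporter-positive and reporter-negative cells of mice of genotype Il7r-Cre;Rosa26-lsl-tdTomato, in which the Cre under Il7r control marks cells that have at some time expressed Il7r. Every mouse had received 5 mg/kg LPS into the peritoneum 4 days before the spleen was taken, so that no group is free of LPS, and ages were 7 to 8 weeks. The labels do not name the surface markers used to sort cDC2. Separate mice behind the replicates are not named in the labels, and p-values therefore cover no more than the spread among these libraries, which may be technical.

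When a dendritic cell matures it raises Ccr7, the receptor for Ccl19 and Ccl21, which leads it along lymphatics and into T cell zones. The same programme rebuilds the actin skeleton (Fscn1, a bundler of actin filaments, and Marcksl1, a MARCKS-family actin-binding protein), turns on the Ccr4 ligands Ccl17 and Ccl22, and carries genes that restrain the response, among them Socs2, a suppressor of cytokine signalling, and Il4i1, a secreted L-amino acid oxidase. Cd83 is a surface protein of mature dendritic cells that protects MHC class II and CD86 from the ubiquitin ligase March1, and Cacnb3 encodes a beta subunit of voltage-gated calcium channels that is widely used as a marker of migratory dendritic cells.

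RefSeq promoters (GRCm38.p6) matched 6 of the 9 genes, with 7 promoters. The 250 bases before the start site are shown for the neighbouring chemokine genes and for the upstream start of Cacnb3, because these genes had some of the lowest levels in CLP-cDC2. The promoters of Ccl17 and Cacnb3 hold the motif matches found among the 7, and that of Ccl22 holds none. Capitals mark a match to the STAT motif TTCNNNGAA in Ccl17 and to the IRF motif GAAANNGAA in Cacnb3.
Ccl17 (chr8:94810203-94810452, + strand): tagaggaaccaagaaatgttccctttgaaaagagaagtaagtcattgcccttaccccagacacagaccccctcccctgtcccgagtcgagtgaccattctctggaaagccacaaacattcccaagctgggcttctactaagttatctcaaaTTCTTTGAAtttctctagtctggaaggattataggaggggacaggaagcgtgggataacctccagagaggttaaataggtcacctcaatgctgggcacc
Ccl22 (chr8:94745434-94745683, + strand): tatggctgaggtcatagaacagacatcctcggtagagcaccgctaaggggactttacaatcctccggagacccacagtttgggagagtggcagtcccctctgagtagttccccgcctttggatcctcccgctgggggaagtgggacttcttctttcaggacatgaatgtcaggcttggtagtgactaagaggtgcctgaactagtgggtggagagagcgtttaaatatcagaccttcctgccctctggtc
Cacnb3 (chr15:98632078-98632327, + strand): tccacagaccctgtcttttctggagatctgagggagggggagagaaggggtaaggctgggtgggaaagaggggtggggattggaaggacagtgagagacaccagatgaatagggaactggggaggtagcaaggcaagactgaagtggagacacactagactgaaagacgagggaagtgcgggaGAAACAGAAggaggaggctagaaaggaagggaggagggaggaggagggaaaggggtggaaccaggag
Both strands were searched in all 7 promoters. The STAT match lies 99 bases before the Ccl17 start and meets the motif on both strands, since the motif is its own reverse complement. The IRF match lies 67 bases before the Cacnb3 start. The STAT motif is present in 7.02% and the IRF motif in 7.13% of 32851 RefSeq promoters of this length. The NF-kB consensus, found in 3.9% of them, had no match in the 7 promoters. A match describes letters in this window and shows no binding.

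Libraries held 26543345 to 73732243 assigned reads, recovered from the steps of the FPKM values, and 12860 to 13892 genes at 1 FPKM or more. The label was checked with marker lists. The dendritic cell markers Flt3, Zbtb46 and Itgax were present in each group. Flt3, the receptor for the dendritic cell growth factor Flt3L, averaged 102 ± 4.37 FPKM in CLP-cDC2, 101 ± 17.5 FPKM in CDP-cDC2, 92.6 ± 5.66 FPKM in L-cDC2 and 95.4 ± 7.87 FPKM in M-cDC2 (SD, n = 3 each). Zbtb46, a transcription factor of conventional dendritic cells, averaged 8.59 ± 0.837 FPKM in CLP-cDC2, 18.2 ± 5.89 FPKM in CDP-cDC2, 21.4 ± 3.34 FPKM in L-cDC2 and 19.1 ± 2.05 FPKM in M-cDC2. The neutrophil gene Ly6g averaged at most 0.0221 FPKM in any group, and Retnlg was listed at 0 in every library. Other genes of the neutrophil list were present in some libraries. The sum of its 6 genes was 29.2 FPKM in L-cDC2 replicate 2, 10.03 FPKM in M-cDC2 replicate 2 and 1.68 FPKM in CLP-cDC2 replicate 2. It was under 1 FPKM in every other library. CDP-cDC2 replicate 3 and M-cDC2 replicate 3 each stood apart from their group on a principal component, and results that rest on them are also given without them.

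**Figure D1:**
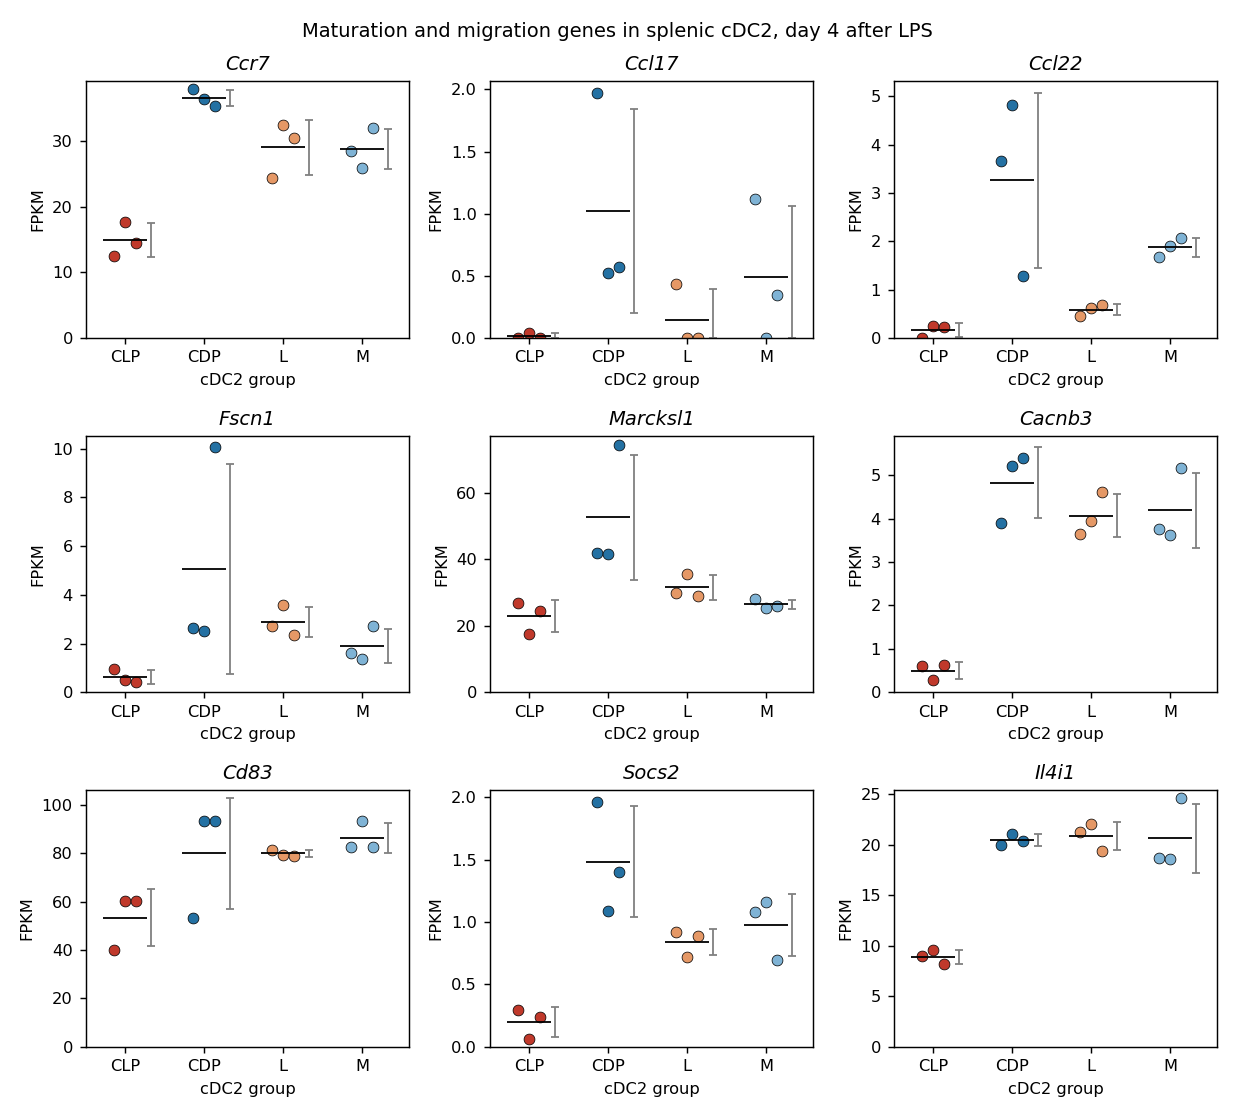
FPKM of the 9 genes in each of the 12 libraries. Points are libraries in replicate order, black lines are group means, and grey bars are SDs (n = 3), with the lower end stopped at 0; axes are linear and start at 0, and the CLP-cDC2 points lie lowest for Ccr7, Cacnb3 and Il4i1, at 12.5 to 17.7, 0.276 to 0.623 and 8.15 to 9.55 FPKM.

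In cells derived from CLP, most of these genes were lower than in cells derived from CDP, and Cacnb3, Ccl22, Fscn1 and Socs2 were all under 1 FPKM there. No member was called between the fate-mapped L-cDC2 and M-cDC2, where Ccr7 averaged 29.1 ± 4.19 FPKM in L-cDC2 and 28.8 ± 3.11 FPKM in M-cDC2. Between CLP-cDC2 and CDP-cDC2, 7 of the 9 genes fell (limma on log2(FPKM + 1), adjusted p under 0.05 over 14538 genes), 0 rose, 1 was not called and Ccl17 was too low to test. The background of this comparison was 6.12% of tested genes lower and 7.02% higher. For 7 of the 8 tested genes the CLP-cDC2 and CDP-cDC2 libraries did not overlap, all lower in CLP-cDC2, against 13.0% of tested genes. The members were chosen with earlier results of these data known, so these shares give no independent test of them. Ccl22, Fscn1, Cacnb3 and Socs2 were under 1 FPKM in all 3 CLP-cDC2 libraries and entered the test through the other groups. The filter itself therefore favoured a lower value for these genes. Of the 4 other tested members, 3 were called lower (Ccr7, Marcksl1 and Il4i1), and the same 3 did not overlap. In bulk RNA, fewer cells of a mature type and less RNA per cell cannot be told apart.

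The receptor itself, Ccr7 (chromosome 11, 99035022 to 99045903, minus strand as deposited; the build of deposited coordinates is not given), had 12.5, 17.7 and 14.5 FPKM in CLP-cDC2 replicates 1, 2 and 3 and 37.9, 36.5 and 35.4 FPKM in CDP-cDC2. It had 24.4, 32.5 and 30.5 FPKM in L-cDC2 and 28.5, 25.9 and 32.1 FPKM in M-cDC2. The order of the means was CDP-cDC2, L-cDC2, M-cDC2 and CLP-cDC2; L-cDC2 and M-cDC2 overlapped, and every CLP-cDC2 library lay under every other library. These values rest on 842 to 4443 reads. Mean FPKM was 2.45-fold lower in CLP-cDC2 than in CDP-cDC2 (log2 -1.25, SE 0.15, limma adjusted p = 0.00037). It was 1.95-fold lower in CLP-cDC2 than in L-cDC2 (log2 difference -0.92, SE 0.15, adjusted p = 0.0018). Between L-cDC2 and M-cDC2 the log2 difference was 0.01, with a 95% interval of -0.31 to 0.33. Between CDP-cDC2 and M-cDC2 it was 0.34 (SE 0.15, adjusted p = 0.22), although the 3 CDP-cDC2 libraries were all above the 3 M-cDC2 libraries.

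The ligands of Ccr7, Ccl19 and Ccl21a, made mainly by stromal cells, averaged at most 0.245 FPKM in any group and were not tested. Of 20 genes listed around Ccr7 signalling and motility, 17 were tested. In CLP-cDC2 against CDP-cDC2, 2 fell and 0 rose, with a median log2 difference of -0.32, against -0.01 over all tested genes. Of all tested genes, 6.12% were called lower there and 7.02% higher. Rac1, a GTPase of leading-edge actin, averaged 14.004 ± 4.02 FPKM in CLP-cDC2 and 66.0 ± 28.2 FPKM in CDP-cDC2 (log2 difference -2.10, SE 0.43, adjusted p = 0.0080). Rac1 also spread widely within groups, with 44.9, 27.1 and 11.3 FPKM in M-cDC2 replicates 1, 2 and 3. Grk3, a kinase that desensitises G protein-coupled receptors, averaged 19.1 ± 2.17 FPKM in CLP-cDC2 and 32.3 ± 7.43 FPKM in CDP-cDC2 (adjusted p = 0.032, and 0.11 without CDP-cDC2 replicate 3; the call was also lost without any 1 of the CLP-cDC2 libraries, at 0.058 to 0.10). In CLP-cDC2 against L-cDC2, Rac1 (log2 difference -1.499, adjusted p = 0.045) and Dock8 (-0.76, adjusted p = 0.032) fell; Dock8 is an exchange factor needed for dendritic cell migration. The Rac1 call against L-cDC2 was lost without any 1 of the CLP-cDC2 or L-cDC2 libraries, CDP-cDC2 replicate 2 or M-cDC2 replicate 2, at 0.057 to 0.14. That of Dock8 was lost without CLP-cDC2 replicate 1 or 2 or any 1 of the L-cDC2 libraries, at 0.057 to 0.15.

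Of the chemokines that matured cells secrete, Ccl17 was the least abundant member and Ccl22 was low. Ccl22 (chromosome 8, 95472218 to 95478327, plus strand) had 0, 0.255 and 0.223 FPKM in CLP-cDC2 replicates 1, 2 and 3 and 3.67, 4.82 and 1.29 FPKM in CDP-cDC2. It had 0.456, 0.616 and 0.683 FPKM in L-cDC2 and 1.67, 1.89 and 2.06 FPKM in M-cDC2. The order was CDP-cDC2, M-cDC2, L-cDC2 and CLP-cDC2, and the lower 3 groups did not overlap each other, whereas CDP-cDC2 and M-cDC2 did. Ccl22 was 20.5-fold lower in mean FPKM in CLP-cDC2 than in CDP-cDC2 (log2 difference -1.78 on the log2(FPKM + 1) scale, which understates low genes, SE 0.27, adjusted p = 0.0017).

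Ccl22 was the member that differed most between L-cDC2 and M-cDC2, with a log2 difference of -0.86 (SE 0.27, adjusted p = 0.25) and an unadjusted p of 0.0081. That difference passed the threshold without CDP-cDC2 replicate 3 (adjusted p = 0.013) and when only L-cDC2 and M-cDC2 were fitted (0.024) or libraries were weighted (0.0049). Every L-cDC2 library was under 1 FPKM in Ccl22, which entered the test through CDP-cDC2 and M-cDC2. CDP-cDC2 replicate 3 had the lowest Ccl22 of its group; without it the log2 difference of CDP-cDC2 from M-cDC2 was 0.86 (adjusted p = 0.043), against 0.47 (adjusted p = 0.36) with all libraries. Ccl17 (chromosome 8, 95537081 to 95538664, plus strand) had 0, 0.0426 and 0 FPKM in CLP-cDC2 and 1.97, 0.520 and 0.572 FPKM in CDP-cDC2. It had 0.434, 0 and 0 FPKM in L-cDC2 and 1.12, 0 and 0.345 FPKM in M-cDC2. Only 2 libraries reached 1 FPKM, so Ccl17 was not tested; its reads summed to 1 in CLP-cDC2, 64 in CDP-cDC2, 8 in L-cDC2 and 35 in M-cDC2, and 3 reads were worth 0.0792 to 0.220 FPKM.

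Their receptor Ccr4, found mainly on T cells, averaged 0.0254, 0.00769, 0.00406 and 0.00239 FPKM in CLP-cDC2, CDP-cDC2, L-cDC2 and M-cDC2. Of 12 genes listed as receptor or upstream regulators of Ccl17 and Ccl22, 11 were tested. In CLP-cDC2 against CDP-cDC2, 3 fell and 0 rose, where 6.12% of all tested genes were called lower and 7.02% higher. All 3 are chains of the receptor for GM-CSF, a cytokine that drives dendritic cell development and activation, or of its family. Csf2ra averaged 38.4 ± 1.34 FPKM in CLP-cDC2 and 80.9 ± 10.4 FPKM in CDP-cDC2 (log2 difference -1.05, SE 0.12, adjusted p = 0.00026). Csf2rb2 averaged 1.36 ± 0.423 FPKM in CLP-cDC2 and 5.80 ± 2.26 FPKM in CDP-cDC2 (-1.49, adjusted p = 0.0019), and Csf2rb 9.79 ± 2.03 FPKM in CLP-cDC2 and 30.04 ± 12.8 FPKM in CDP-cDC2 (-1.47, adjusted p = 0.0039). Csf2rb and Csf2rb2 are close paralogs, so how their reads were divided is uncertain. Irf4, a transcription factor of cDC2 maturation, averaged 5.69 ± 0.427 FPKM in CLP-cDC2 and 6.16 ± 1.55 FPKM in CDP-cDC2, a log2 difference of -0.08 (adjusted p = 0.81) whose sign turned without CDP-cDC2 replicate 3 (0.09).

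In CLP-cDC2 against L-cDC2, Csf2ra (log2 difference -0.43, adjusted p = 0.032) and Stat6 (-1.13, adjusted p = 0.043), which relays IL-4 signals, fell. Klf4, a transcription factor needed for a cDC2 subset, rose there (0.79, adjusted p = 0.019). Klf4 averaged 22.4 ± 5.87 FPKM in CLP-cDC2, 29.5 ± 3.40 FPKM in CDP-cDC2, 12.2 ± 0.901 FPKM in L-cDC2 and 14.3 ± 2.54 FPKM in M-cDC2. Against M-cDC2, CDP-cDC2 were higher in Klf4 (1.01, adjusted p = 0.018) and Csf2rb2 (1.14, adjusted p = 0.028). These calls rest on few libraries. Without any 1 of the CLP-cDC2 or L-cDC2 libraries the calls of Csf2ra (0.059 to 0.14) and Stat6 (0.056 to 0.18) against L-cDC2 were lost, that of Stat6 also without M-cDC2 replicate 2 (0.060). The Klf4 call against L-cDC2 was lost without CLP-cDC2 replicate 1 or 3 or L-cDC2 replicate 1 or 2 (0.058 to 0.086). Against M-cDC2, that of Klf4 was lost without CDP-cDC2 replicate 1 or M-cDC2 replicate 1 or 3 (0.055 to 0.082), and that of Csf2rb2 without CDP-cDC2 replicate 1 or 3 or any 1 of the M-cDC2 libraries (0.055 to 0.11).

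The actin genes came next. Fscn1 (chromosome 5, 142946098 to 142958940, plus strand) had 0.948, 0.498 and 0.438 FPKM in CLP-cDC2 replicates 1, 2 and 3 and 2.65, 2.50 and 10.1 FPKM in CDP-cDC2. It had 2.74, 3.56 and 2.35 FPKM in L-cDC2 and 1.62, 1.38 and 2.71 FPKM in M-cDC2. CLP-cDC2 lay under all other groups, which overlapped each other, and CDP-cDC2 replicate 3 was the highest of the 12 libraries. Fscn1 was 8.07-fold lower in mean FPKM in CLP-cDC2 than in CDP-cDC2 (log2 difference -1.69, SE 0.36, adjusted p = 0.010). Without CDP-cDC2 replicate 3 the difference was -1.15 (adjusted p = 0.0099). The call was lost with no filter on low values (adjusted p = 0.065) and when only CLP-cDC2 and CDP-cDC2 were fitted (0.060).

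Marcksl1 (chromosome 4, 129407374 to 129409778, plus strand) was among the more abundant members, with 26.8, 17.6 and 24.4 FPKM in CLP-cDC2 replicates 1, 2 and 3 and 41.9, 41.6 and 74.3 FPKM in CDP-cDC2. It had 29.7, 35.7 and 29.1 FPKM in L-cDC2 and 27.9, 25.4 and 25.9 FPKM in M-cDC2. Every CDP-cDC2 library exceeded the rest, again with replicate 3 highest, and CLP-cDC2 and M-cDC2 overlapped. It was 2.29-fold lower in CLP-cDC2 than in CDP-cDC2 (log2 difference -1.13, SE 0.21, adjusted p = 0.0050; -0.86 and 0.0085 without CDP-cDC2 replicate 3). Marcksl1 was the 1 member called between CDP-cDC2 and M-cDC2, with a log2 difference of 0.91 (adjusted p = 0.043). Leaving out CDP-cDC2 replicate 3 gave 0.64 and ended the call (adjusted p = 0.089), as did leaving out CLP-cDC2 replicate 3, any 1 of the L-cDC2 libraries or any 1 of the M-cDC2 libraries, at 0.054 to 0.14.

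Among 11 relatives and other actin-bundling genes, 7 were tested, and 0 were called between CLP-cDC2 and CDP-cDC2. Lcp1, the leukocyte plastin, averaged 259 ± 29.6 FPKM in CLP-cDC2, 308 ± 91.4 FPKM in CDP-cDC2, 407 ± 33.5 FPKM in L-cDC2 and 323 ± 46.7 FPKM in M-cDC2, and fell in CLP-cDC2 against L-cDC2 (log2 difference -0.65, adjusted p = 0.039). The formin Fmnl3 rose in L-cDC2 against M-cDC2, with 3.39 ± 0.864 FPKM in L-cDC2 and 1.55 ± 0.249 FPKM in M-cDC2 (0.77, adjusted p = 0.033). Marcks, the larger relative of Marcksl1, rose in CDP-cDC2 against M-cDC2, with 26.8 ± 3.28 FPKM in CDP-cDC2 and 13.6 ± 2.34 FPKM in M-cDC2 (0.93, adjusted p = 0.033). The Lcp1 call was lost without any 1 of the CLP-cDC2 or L-cDC2 libraries or M-cDC2 replicate 2 (0.058 to 0.15), and the Fmnl3 call without any 1 of the L-cDC2 or M-cDC2 libraries (0.057 to 0.24). The Marcks call was lost without CDP-cDC2 replicate 1 or 3, L-cDC2 replicate 1 or 3 or any 1 of the M-cDC2 libraries (0.0503 to 0.13).

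Cacnb3 (chromosome 15, 98528721 to 98542410, plus strand), whose upstream promoter is shown above, had 0.602, 0.276 and 0.623 FPKM in CLP-cDC2 replicates 1, 2 and 3 and 3.89, 5.21 and 5.38 FPKM in CDP-cDC2. It had 3.65, 3.94 and 4.61 FPKM in L-cDC2 and 3.77, 3.62 and 5.17 FPKM in M-cDC2. CDP-cDC2, L-cDC2 and M-cDC2 overlapped, while the highest CLP-cDC2 library was under the lowest of them. Cacnb3 was 9.65-fold lower in mean FPKM in CLP-cDC2 than in CDP-cDC2 (log2 difference -1.96, SE 0.18, adjusted p = 5.94e-05) and 8.13-fold lower than in L-cDC2 (-1.76, SE 0.18, adjusted p = 5.99e-05). With a pseudocount of 0.1 in place of 1 the first of these was -3.37, and with 5 it was -0.83; for Ccl22 the same settings gave -5.19 and -0.65. Between L-cDC2 and M-cDC2 the log2 difference was -0.03, with a 95% interval of -0.41 to 0.36. Of 14 other subunits of high-voltage-activated calcium channels, 1 was high enough to test. Cacna1s, a pore-forming subunit known from skeletal muscle, averaged 0.177 ± 0.140 FPKM in CLP-cDC2, 0.911 ± 0.0729 FPKM in CDP-cDC2, 2.18 ± 0.0690 FPKM in L-cDC2 and 1.84 ± 0.245 FPKM in M-cDC2. It fell in CLP-cDC2 against CDP-cDC2 (log2 difference -0.71, adjusted p = 0.0087) and against L-cDC2 (-1.44, adjusted p = 6.36e-05). With means under 1 FPKM in CLP-cDC2 and CDP-cDC2, Cacna1s entered the test through L-cDC2 and M-cDC2. The call against CDP-cDC2 was lost when only CLP-cDC2 and CDP-cDC2 were fitted (adjusted p = 0.054).

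Cd83 (chromosome 13, 43938251 to 43956608, plus strand) was the most abundant member and the 1 tested member not called between CLP-cDC2 and CDP-cDC2. It had 39.8, 60.3 and 60.1 FPKM in CLP-cDC2 replicates 1, 2 and 3 and 53.2, 93.3 and 93.1 FPKM in CDP-cDC2. It had 81.3, 79.3 and 78.9 FPKM in L-cDC2 and 82.6, 93.4 and 82.4 FPKM in M-cDC2. CDP-cDC2 replicate 1 lay within the CLP-cDC2 range, while L-cDC2 and M-cDC2 lay above it. The log2 difference of CLP-cDC2 from CDP-cDC2 was -0.55 (SE 0.21, adjusted p = 0.098), and -0.82 (adjusted p = 0.0086) without CDP-cDC2 replicate 1; it also passed with library weights (-0.67, adjusted p = 0.031). March1, listed as Marchf1, averaged 10.6 ± 1.16 FPKM in CLP-cDC2 and 10.8 ± 1.91 FPKM in CDP-cDC2. Of 5 genes tested around Cd83, 2 were called, both lower in CLP-cDC2 than in CDP-cDC2, against 6.12% of all tested genes. They were the MHC class II chains H2-Ab1, with 7560 ± 830 FPKM in CLP-cDC2 and 10823 ± 444 FPKM in CDP-cDC2 (log2 difference -0.52, adjusted p = 0.010), and H2-Aa (-0.42, adjusted p = 0.047). With quantile normalization the H2-Ab1 difference was -0.11 (adjusted p = 0.26), and its call was also lost with no filter on low values (0.089) and when only CLP-cDC2 and CDP-cDC2 were fitted (0.073). The H2-Aa call was lost without any 1 library other than CDP-cDC2 replicate 3, at 0.0501 to 0.16.

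CLP-cDC2 were also lowest in the restraining genes. Socs2 (chromosome 10, 95221224 to 95253042, minus strand) had 0.294, 0.0644 and 0.236 FPKM in CLP-cDC2 replicates 1, 2 and 3 and 1.96, 1.09 and 1.40 FPKM in CDP-cDC2. It had 0.918, 0.720 and 0.885 FPKM in L-cDC2 and 1.08, 1.16 and 0.696 FPKM in M-cDC2. CLP-cDC2 did not overlap any other group, and L-cDC2 and M-cDC2 overlapped. Socs2 was 7.50-fold lower in mean FPKM in CLP-cDC2 than in CDP-cDC2 (log2 difference -1.04, SE 0.17, adjusted p = 0.0027). Of 7 other SOCS family genes 5 were tested and 0 were called in any of the 5 comparisons.

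Il4i1 (chromosome 7, 44465811 to 44490233, plus strand) had 9.01, 9.55 and 8.15 FPKM in CLP-cDC2 replicates 1, 2 and 3 and 20.0, 21.1 and 20.4 FPKM in CDP-cDC2. It had 21.2, 22.1 and 19.4 FPKM in L-cDC2 and 18.7, 18.6 and 24.6 FPKM in M-cDC2. The other 3 groups shared 1 range and CLP-cDC2 lay wholly under it. The log2 difference was -1.12 (SE 0.13, adjusted p = 0.00034) from CDP-cDC2 and -1.14 (SE 0.13, adjusted p = 0.00015) from L-cDC2. The gene model is uncertain: 83.9% of its 4080 exonic bases also lie in exons of Tbc1d17 on the other strand. Only 560 bases (13.7%) lie in exons of no neighbouring gene. The sources used here do not give whether strand entered the counting, so reads of Tbc1d17 may be part of the Il4i1 values. Tbc1d17 averaged 9.76 ± 1.997 FPKM in CLP-cDC2 and 14.7 ± 1.13 FPKM in CDP-cDC2 (log2 difference -0.56, adjusted p = 0.028), a smaller difference in the same direction. Nup62, which shares 2.38% of the bases, was higher in CLP-cDC2 (0.65, adjusted p = 0.0050). Atf5, which shares 2.01%, was not called (adjusted p = 0.26). Of 10 listed genes of amino acid catabolism and the aryl hydrocarbon receptor, 3 were tested and 0 were called in any of the 5 comparisons.

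**Figure D2:**
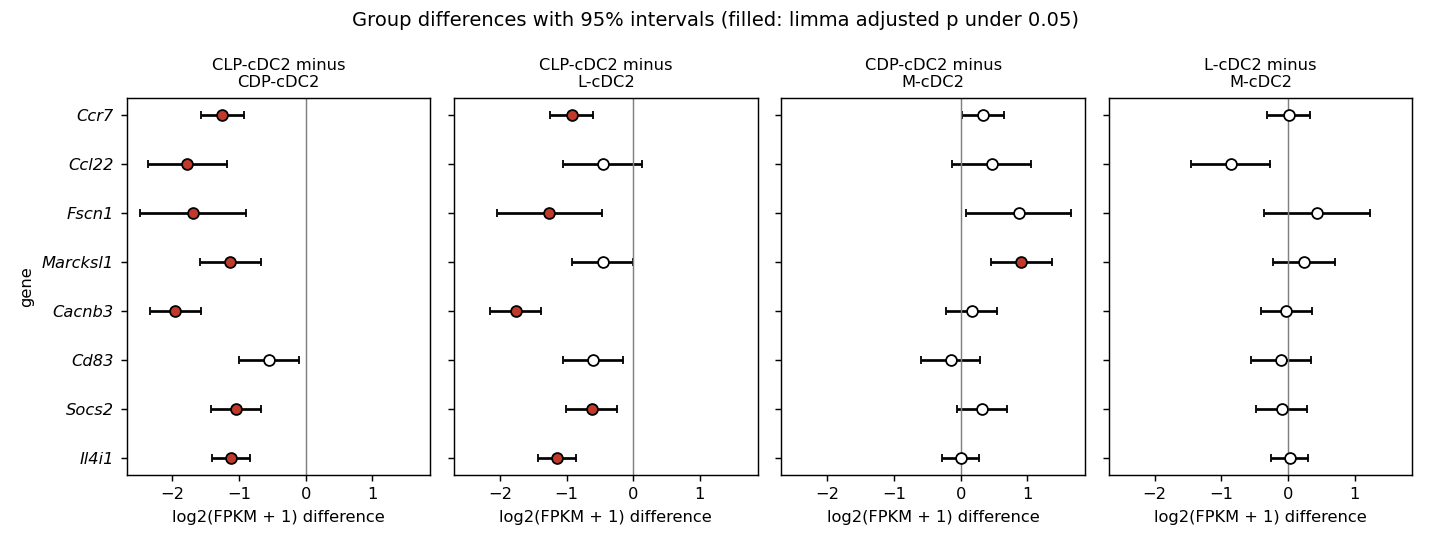
Log2(FPKM + 1) differences of the 8 tested genes in 4 comparisons, first-named group minus second-named, with 95% intervals from limma over 12 libraries. Filled points have an adjusted p under 0.05; between CLP-cDC2 and CDP-cDC2 the values run from -1.96 (Cacnb3) to -0.55 (Cd83), and between L-cDC2 and M-cDC2 from -0.86 (Ccl22) to 0.44 (Fscn1), with no filled point.

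The study set the fate-mapped groups beside the transferred ones to compare CLP-derived with L-cDC2 cells. Between L-cDC2 and M-cDC2, 0 of the 8 tested members were called by limma, where 1.29% of tested genes were called higher and 0.440% lower; 1201 of the 14538 genes had an unadjusted p under 0.05, and 1 member, Ccl22, was among them. Voom on recovered reads also called 0. The libraries of L-cDC2 and M-cDC2 did not overlap for Ccl22 and Cd83, lower in L-cDC2, and for Marcksl1, higher in L-cDC2 (log2 difference 0.24, 95% interval -0.22 to 0.70). Over all tested genes, 6.67% were lower in L-cDC2 without overlap and 12.7% higher.

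The 2 lineage contrasts were then compared by their difference, L-cDC2 minus M-cDC2 less CLP-cDC2 minus CDP-cDC2. This difference was called above 0 for 6 of the 8 tested members, where 3.61% of tested genes were called above 0 and 2.38% below. Of the 6, Fscn1, Cacnb3 and Socs2 were under 1 FPKM in all CLP-cDC2 libraries and entered the test through the other groups. The filter therefore favoured a lower CLP-cDC2 contrast for these 3 genes, which raises this difference. Ccr7, Marcksl1 and Il4i1 were not so limited. The difference was 1.26 for Ccr7 (SE 0.21, adjusted p = 0.0060), 1.93 for Cacnb3 (SE 0.25, adjusted p = 0.0014) and 1.15 for Il4i1 (SE 0.18, adjusted p = 0.0051), and these calls held under all 25 alternatives run. It was 2.13 for Fscn1 (adjusted p = 0.033), 1.37 for Marcksl1 (adjusted p = 0.022) and 0.95 for Socs2 (adjusted p = 0.043). The Marcksl1 call was lost without CLP-cDC2 replicate 2 (adjusted p = 0.053), L-cDC2 replicate 2 (0.073) or M-cDC2 replicate 2 (0.060). The Fscn1 call was lost without CLP-cDC2 replicate 2 or 3, any 1 of the L-cDC2 libraries, or M-cDC2 replicate 1 or 2, at adjusted p of 0.060 to 0.097. The Socs2 call was lost without any 1 library other than CDP-cDC2 replicate 2, at 0.060 to 0.10. Ccl22 (0.92, adjusted p = 0.16; 1.32 and 0.013 without CDP-cDC2 replicate 3) and Cd83 (0.45, adjusted p = 0.37) were not called.

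Compared directly, CLP-cDC2 were lower than L-cDC2 in 5 of the 9 genes (Ccr7, Fscn1, Cacnb3, Socs2 and Il4i1), where 6.32% of tested genes were called lower and 4.29% higher. All 8 tested members were lower in CLP-cDC2 with no overlap of libraries, against 17.9% of tested genes. Ccl22, Fscn1, Cacnb3 and Socs2 were under 1 FPKM in all CLP-cDC2 libraries and entered the test through the other groups. The 4 others did not overlap either, and 2 of them were called (Ccr7 and Il4i1). The members were chosen with earlier results of these data known. Ccl22 and Socs2 were under 1 FPKM in every L-cDC2 library as well. This comparison also sets transferred cells against cells of reporter mice, and lineage labelling and transfer cannot be told apart in it. Fscn1 (log2 difference -1.26, adjusted p = 0.046) and Socs2 (-0.62, adjusted p = 0.041) were each lost without any 1 of the CLP-cDC2 or L-cDC2 libraries or M-cDC2 replicate 1 or 2, at 0.060 to 0.17 for Fscn1 and 0.054 to 0.13 for Socs2. The values were -0.46 for Ccl22 (adjusted p = 0.31), -0.46 for Marcksl1 (adjusted p = 0.19) and -0.60 for Cd83 (adjusted p = 0.084, and 0.023 without CDP-cDC2 replicate 1). CDP-cDC2 and M-cDC2, the other pair across systems, differed in 1 member, Marcksl1, where 1.62% of tested genes were called higher and 0.956% lower. These comparisons share groups, and their calls are not independent.

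Other genes of mature dendritic cells were read from a list of 36, of which 32 were tested. Like the members, this list was chosen with earlier results of these data known. Between CLP-cDC2 and CDP-cDC2, 15 fell and 1 rose, with a median log2 difference of -0.62. Over all tested genes, 6.12% were called lower there and 7.02% higher. Nudt17, Cd63 and Zmynd15 were under 1 FPKM in all CLP-cDC2 libraries; of the 29 other tested genes, 12 fell. Between L-cDC2 and M-cDC2, 0 were called and the median was 0.01, against 0.04 over all tested genes. The difference of the lineage contrasts was called above 0 for 12 genes, with a median of 0.81, where 3.61% of tested genes were called above 0. In CLP-cDC2 against L-cDC2, 19 fell and 1 rose, with a median of -0.79, where 6.32% of tested genes were called lower and 4.29% higher. In CDP-cDC2 against M-cDC2, 1 rose (Marcks) and 1 fell, the adhesion molecule Icam1 (log2 difference -0.48, adjusted p = 0.040); the Icam1 call was lost without any 1 library other than CLP-cDC2 replicates 2 and 3 and CDP-cDC2 replicate 2, at 0.0501 to 0.14.

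Relb, the NF-kB subunit tied to dendritic cell maturation, averaged 53.5 ± 2.57 FPKM in CLP-cDC2, 113 ± 18.3 FPKM in CDP-cDC2, 119 ± 4.51 FPKM in L-cDC2 and 117 ± 1.72 FPKM in M-cDC2. It fell in CLP-cDC2 against CDP-cDC2 (log2 difference -1.05, SE 0.12, adjusted p = 0.00028) and against L-cDC2 (-1.14, adjusted p = 7.18e-05). Traf1, a signalling adaptor induced by NF-kB, was likewise lowest in CLP-cDC2, with 27.8 ± 3.21 FPKM in CLP-cDC2, 58.0 ± 4.79 FPKM in CDP-cDC2, 61.6 ± 2.50 FPKM in L-cDC2 and 61.7 ± 4.98 FPKM in M-cDC2. For both genes L-cDC2 and M-cDC2 overlapped, and every CLP-cDC2 library lay under the other groups.

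Cd63, a tetraspanin of late endosomes, averaged 0.653 ± 0.126 FPKM in CLP-cDC2, 4.34 ± 0.0724 FPKM in CDP-cDC2, 1.93 ± 0.496 FPKM in L-cDC2 and 2.78 ± 0.139 FPKM in M-cDC2. Nudt17 had 2 reads in all 3 CLP-cDC2 libraries together, against 254 to 337 reads per library in CDP-cDC2. Ccl5, a chemokine for T cells and NK cells, averaged 74.3 ± 32.8 FPKM in CLP-cDC2, 244 ± 64.9 FPKM in CDP-cDC2, 459 ± 22.6 FPKM in L-cDC2 and 289 ± 39.4 FPKM in M-cDC2. Adam8, a membrane metalloprotease, averaged 8.59 ± 1.57 FPKM in CLP-cDC2, 27.8 ± 9.45 FPKM in CDP-cDC2, 60.4 ± 8.90 FPKM in L-cDC2 and 41.4 ± 4.04 FPKM in M-cDC2. For Ccl5 and Adam8 the L-cDC2 means were the highest of the 4 groups; Ccl5 is also a product of NK and T cells, whose lists were higher in L-cDC2 (below), and their part in this was not tested.

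The costimulatory molecules differed among themselves. Cd40, the receptor for T cell CD40L, fell in CLP-cDC2, with 16.8 ± 0.631 FPKM in CLP-cDC2 and 30.3 ± 2.95 FPKM in CDP-cDC2 (log2 difference -0.81, SE 0.12, adjusted p = 0.0012). Cd274, which encodes PD-L1, averaged 17.1 ± 4.24 FPKM in CLP-cDC2 and 30.6 ± 11.3 FPKM in CDP-cDC2 (-0.76, adjusted p = 0.043), and its call was lost without CDP-cDC2 replicate 3 (0.13). The call of Cd274 was also lost without CLP-cDC2 replicate 1 or 2, CDP-cDC2 replicate 2, any 1 of the L-cDC2 libraries, or M-cDC2 replicate 1 or 2, at 0.054 to 0.15. Cd86 (-0.47, adjusted p = 0.052, and 0.018 without CLP-cDC2 replicate 3) and Cd80 (-0.13, adjusted p = 0.73), the ligands of CD28, were not called. Bcl2l14, named after its value was seen because it was the 1 gene of the list that rose, averaged 6.69 ± 1.31 FPKM in CLP-cDC2 and 4.09 ± 0.985 FPKM in CDP-cDC2 (0.60, adjusted p = 0.0498). That call was lost without any 1 library other than CDP-cDC2 replicate 2, at 0.053 to 0.16. Against L-cDC2, with 2.43 ± 0.497 FPKM, it was also the 1 gene of the list that rose in CLP-cDC2 (1.16, adjusted p = 0.0018), and this call held under all 25 alternatives run.

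**Figure D3:**
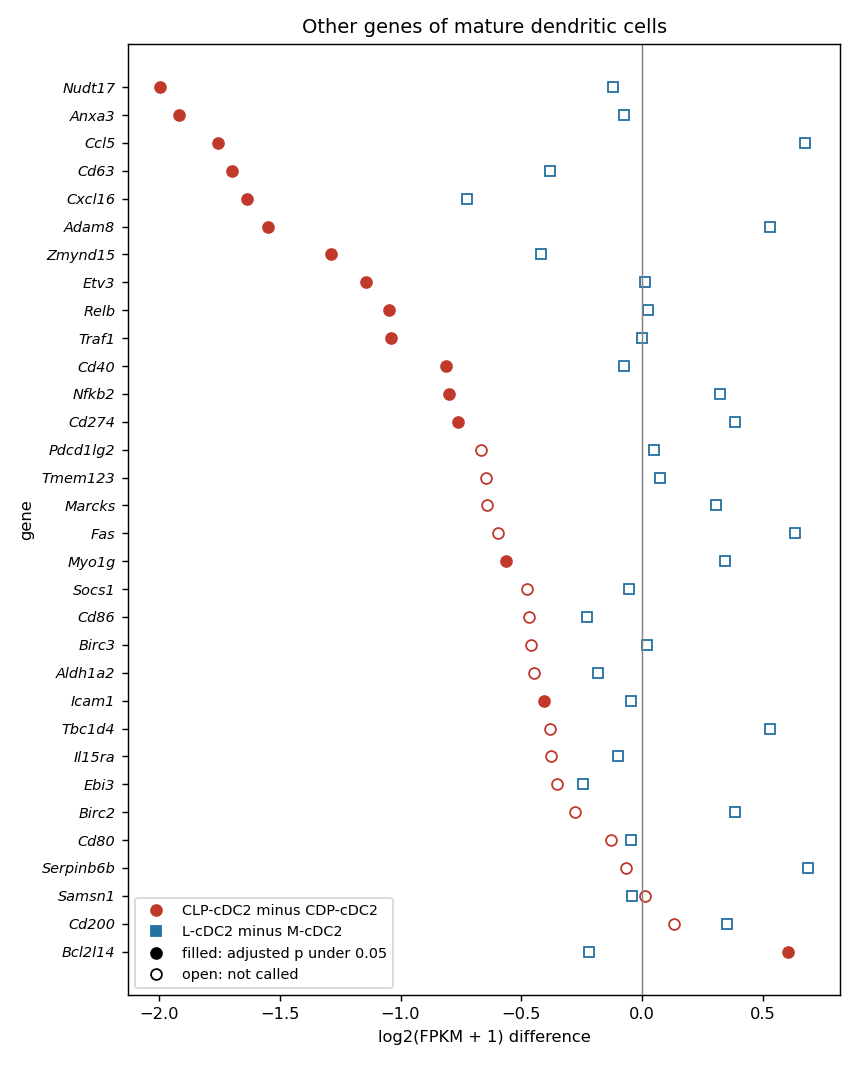
Log2(FPKM + 1) differences of the 32 tested genes of the list of 36, sorted by CLP-cDC2 minus CDP-cDC2 (circles), with L-cDC2 minus M-cDC2 (squares) on the same rows. Filled symbols have a limma adjusted p under 0.05: 15 circles lie below 0 and 1 above, and no square is filled.

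Cell type markers differed between groups, also where few or no members did. Between L-cDC2 and M-cDC2 (0 members called), 5 of 7 cDC1 genes were called lower, against 0.440% of all tested genes. There 5 of 7 tested genes of each of the B, T and NK cell lists were called higher, against 1.29%. In CDP-cDC2 against M-cDC2 (1 member called), 5 of 7 cDC1 genes were called lower, against 0.956%. In CLP-cDC2 against L-cDC2 (5 members called), 5 of 8 cDC2 genes were called lower, against 6.32%, and 5 of 7 cDC1 genes higher, against 4.29%. Of 7 tested genes in each list, 4 B cell, 5 T cell and 5 NK cell genes were called lower there, and 1 NK cell gene higher. In CLP-cDC2 against CDP-cDC2, 6.12% of all tested genes were called lower and 7.02% higher. Of 6 general conventional dendritic cell markers, 3 fell in CLP-cDC2 against CDP-cDC2: H2-Ab1, above, Zbtb46 (log2 difference -0.96, adjusted p = 0.0071) and the integrin Itgax (-0.89, adjusted p = 0.026). Itgax averaged 61.0 ± 5.93 FPKM in CLP-cDC2 and 117.9 ± 41.8 FPKM in CDP-cDC2, and its call was lost with replicate 3 of either group, or CLP-cDC2 replicate 2, left out (0.061 to 0.096). Against L-cDC2, 1 of the 6 fell, Zbtb46 (-1.22, adjusted p = 0.0017), and Itgax (-0.70, adjusted p = 0.075) was called without CDP-cDC2 replicate 3 (0.022). The summed level of the 6 was 7043 to 8700 FPKM in CLP-cDC2, 10942 to 11710 FPKM in CDP-cDC2, 7803 to 8384 FPKM in L-cDC2 and 9619 to 11392 FPKM in M-cDC2. Of 8 cDC2 markers, 5 fell in CLP-cDC2 against CDP-cDC2, and the summed level of the list was 195 to 252 FPKM in CLP-cDC2, 324 to 447 FPKM in CDP-cDC2, 389 to 414 FPKM in L-cDC2 and 374 to 463 FPKM in M-cDC2. Of 7 cDC1 markers, 5 rose there, with sums of 121 to 157 FPKM in CLP-cDC2 and 53.2 to 86.5 FPKM in CDP-cDC2. The cDC1 sums were 67.5 to 80.9 FPKM in L-cDC2 and 160 to 163 FPKM in M-cDC2. Of 6 monocyte genes, 5 were tested and 3 fell, with sums of 57.7 to 115 FPKM in CLP-cDC2, 436 to 573 FPKM in CDP-cDC2, 116 to 127 FPKM in L-cDC2 and 295 to 321 FPKM in M-cDC2. The 3 that fell in CLP-cDC2 against CDP-cDC2 were Lyz2, Cd14 and Csf1r. Ly6c2 and Fn1, taken as monocyte-defining, averaged at most 2.83 and 0.0488 FPKM in any group. The sums therefore came mainly from other genes of the list.

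Of 7 macrophage genes 4 were tested and 2 fell in CLP-cDC2 against CDP-cDC2, and CLP-cDC2 replicate 2 held 85.3 FPKM of that list, against 13.96 and 18.3 FPKM in CLP-cDC2 replicates 1 and 3. The sums of that list were 77.5 to 107 FPKM in CDP-cDC2, 60.7 to 67.3 FPKM in L-cDC2 and 55.0 to 63.3 FPKM in M-cDC2. CLP-cDC2 replicates 1 and 3 thus lay under every other library. Of 6 plasmacytoid dendritic cell genes 5 were tested and 2 rose, with sums of 140 to 275 FPKM in CLP-cDC2 and 54.0 to 116 FPKM in CDP-cDC2. Of 10 B cell genes 7 were tested and 5 rose, with sums of 70.1 to 77.8 FPKM in CLP-cDC2 and 35.1 to 53.9 FPKM in CDP-cDC2. L-cDC2 had the highest sums of the B cell list (152 to 159 FPKM), the T cell list (44.5 to 59.8 FPKM) and the NK cell list (262 to 354 FPKM), against 43.8 to 57.2, 7.73 to 10.05 and 64.5 to 104 FPKM in M-cDC2. The part of any of these cells in the levels of Ccr7 and the other members was not tested.

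**Figure D4:**
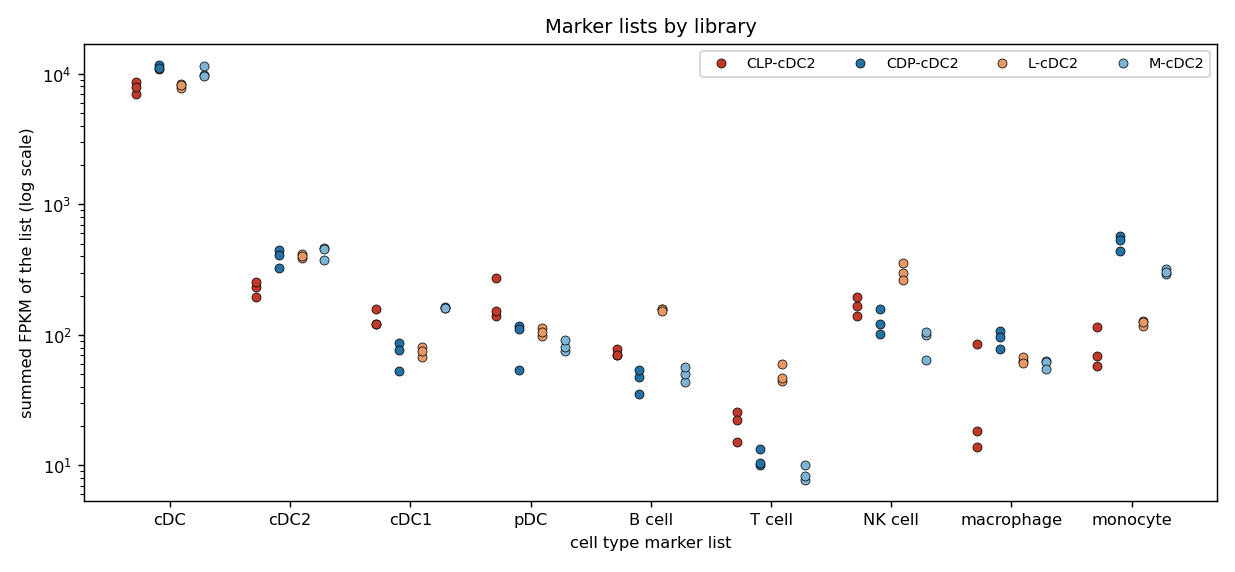
Summed FPKM of each marker list in each library, on a log scale; colours are the 4 groups, 3 points each. The cDC2 sums are lowest in CLP-cDC2 (195 to 252 FPKM), the monocyte list runs from 57.7 FPKM in a CLP-cDC2 library to 573 FPKM in a CDP-cDC2 library, and the B, T and NK cell lists are highest in L-cDC2.

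The genes whose log2(FPKM + 1) followed Ccr7 most closely over the 12 libraries were Adap2 (Pearson r 0.96), Mefv, Scimp and Sulf2 (0.94 each) and Tgfbi, Errfi1, Abi3 and Cd300lb (0.93 each), among 5791 protein-coding candidates. These values describe 12 points from 4 groups, of which the 3 CLP-cDC2 libraries are the lowest in Ccr7. Mefv, which encodes the inflammasome sensor pyrin, averaged 1.44 FPKM in CLP-cDC2, 24.5 FPKM in CDP-cDC2, 11.3 FPKM in L-cDC2 and 15.3 FPKM in M-cDC2. Tgfbi, an extracellular matrix protein of myeloid cells, averaged 25.2 FPKM in CLP-cDC2, 115 FPKM in CDP-cDC2, 54.0 FPKM in L-cDC2 and 70.5 FPKM in M-cDC2. Among the members, Pearson r with Ccr7 ran from 0.63 (Marcksl1) to 0.92 (Cacnb3 and Il4i1), and the order changed with Spearman's rho, which ran from 0.36 (Cd83) to 0.84 (Cacnb3). Once group means were subtracted, the members' Pearson values against Ccr7 ran from -0.52 (Socs2) to 0.43 (Il4i1).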

How the data were processed

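The authors deposited FPKM values, which are fragments scaled by gene length and by library total, for 12 libraries. RNA was amplified with SMART-Seq HT and tagmented with Nextera XT, per the labels' protocols. Per the submitters' processing notes, the tools named include STAR 2.7.9a, featureCounts 2.0.1, DESeq2 1.20.0, cutadapt 3.7, Trimmomatic 0.39 and Trim Galore 0.6.7, with GRCm38 and GRCh38 listed and no role given. None of the 9 deposited gene starts matched GRCm38, so deposited coordinates are printed without a build.

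Groups and replicate numbers came from the labels. The 14538 genes that reached 1 FPKM in 3 or more libraries were tested with limma 3.58.1 in R 4.3.3 on log2(FPKM + 1), all 12 libraries, 4 group means, eBayes with trend, two-sided, Benjamini-Hochberg adjustment over all tested genes in each of 5 contrasts, called under 0.05. Reads per library were recovered from the FPKM steps, taking the commonest low value as 1 read; 45.2 to 53.6% of genes came out whole (tolerance 0.02 reads), so voom on these reads was an alternative only. Limits of 3 reads cover counting error only. The code was tested on simulated data. Whether replicate numbers pair the libraries is unknown, and the main fit ignored them. Correlations of deviations from group means at the same number were 0.13, -0.22 and -0.08 for L-cDC2 with M-cDC2. They were -0.03, 0.28 and 0.09 for CLP-cDC2 with CDP-cDC2. With 3 libraries a group these values cannot decide the question.

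The members and lists were chosen with earlier results of these data known. Named genes are the 9 members, up to 4 called genes per list and contrast by adjusted p, Cd40, Cd80, Cd86, Cd274, Relb, Irf4 and Ccr4, and the 8 genes most correlated with Ccr7; markers, Ccr7 ligands and neighbours of Il4i1 are named as context, and Bcl2l14, Zbtb46 and Itgax were named after their values were seen. Alternatives changed the pseudocount, filter, normalization, libraries, weights, variance prior, replicate block, test and gene class.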

Additional observations from a re-analysis of the deposited data

Results flagged for a closer look

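The effect of lineage differed between the 2 systems by the limma test of the difference, L-cDC2 minus M-cDC2 less CLP-cDC2 minus CDP-cDC2, for the genes below (adjusted p under 0.05), each with the lower value in the CLP-cDC2 contrast. Some of the listed genes were named because they were called in this comparison. Among the members the difference was 1.26 for Ccr7, 2.13 for Fscn1, 1.37 for Marcksl1, 1.93 for Cacnb3, 0.95 for Socs2 and 1.15 for Il4i1 (log2). Of these, Fscn1, Marcksl1 and Socs2 lost the call when some single libraries were left out, with the libraries and values given in the results. Fscn1, Cacnb3 and Socs2 were under 1 FPKM in all CLP-cDC2 libraries and entered the test through the other groups. For Ccr7 the L-cDC2 contrast was 0.01 and the CLP-cDC2 contrast was -1.25.

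Among other maturation genes it was 2.08 for Adam8, 2.43 for Ccl5, 1.07 for Relb, 1.04 for Traf1, 1.32 for Cd63, 1.87 for Nudt17 and 0.74 for Cd40. The Cd40 call was lost without CLP-cDC2 replicate 1, CDP-cDC2 replicate 2, any 1 of the L-cDC2 libraries, or M-cDC2 replicate 1 or 2 (adjusted p of 0.051 to 0.071). Among the remaining listed genes it was 2.82 for Rac1, 0.86 for Csf2ra, 1.30 for Csf2rb2, 1.40 for Csf2rb and 0.87 for Cacna1s. Leaving out L-cDC2 replicate 2 ended the call of Csf2ra (adjusted p = 0.051), and that of Rac1 without CLP-cDC2 replicate 2 or L-cDC2 replicate 2 or 3 (0.054 to 0.066). The Csf2rb2 call was lost without any 1 library other than CLP-cDC2 replicate 1 and CDP-cDC2 replicates 1 and 2 (0.053 to 0.12), and the Csf2rb call without any 1 other than CDP-cDC2 replicates 1 and 2 (0.056 to 0.13). The Cacna1s call was lost without CLP-cDC2 replicate 1 or 3, any 1 of the L-cDC2 libraries, or M-cDC2 replicate 1 or 2 (0.055 to 0.088). Of the dendritic cell markers it was 1.11 for Zbtb46 and 1.45 for Itgax. The Zbtb46 call was lost without CLP-cDC2 replicate 1 or 2 or any 1 of the L-cDC2 or M-cDC2 libraries (0.053 to 0.10), and the Itgax call without CLP-cDC2 replicate 2, replicate 2 of L-cDC2, or M-cDC2 replicate 2 or 3 (0.056 to 0.075). The systems also differ in host, transfer and reporter, and what part each has in these differences was not tested.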

How the results depend on the processing

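Calls of Ccr7, Cacnb3 and Il4i1 held under all 25 alternatives run, between CLP-cDC2 and CDP-cDC2, in the difference of the lineage contrasts and between CLP-cDC2 and L-cDC2. None of these alternatives separated reads of Il4i1 from those of Tbc1d17. The counts of members called moved as follows, and the cause was not tested except where fewer genes could be tested. Between CLP-cDC2 and CDP-cDC2 the count was 7, 4 with a minimum of 5 FPKM, where fewer members were tested, 6 with no filter or only those groups, and 8 with array weights; leaving out libraries gave 7 to 8. Between L-cDC2 and M-cDC2 it was 0, and 1 when only those groups were fitted or with array weights; leaving out libraries gave 0 to 1. For the difference it was 6, 3 with no filter, 4 with a pseudocount of 5, a minimum of 5 FPKM or quantile normalization, and 7 with array weights; leaving out libraries gave 3 to 6. Between CLP-cDC2 and L-cDC2 it was 5, and 3 with a pseudocount of 5, a minimum of 5 FPKM, no filter, quantile normalization or the replicate block, 4 with TMM factors or no trend, and 6 with array weights or only those groups; leaving out libraries gave 3 to 6. Between CDP-cDC2 and M-cDC2 it was 1, and 0 with no filter, quantile normalization, TMM factors, only those groups, no trend, the replicate block, or CDP-cDC2 replicate 3 and M-cDC2 replicate 3 both left out (added after seeing the data), and 3 with array weights; leaving out libraries gave 0 to 1. Under the replicate block the counts were 7, 0, 4, 3 and 0 in the order above.

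Values that changed sign were all uncalled. With L-cDC2 minus M-cDC2, Ccr7 was -0.0048 with quantile normalization, -0.060 with TMM factors and -0.072 to 0.13 leaving out libraries (below 0 with replicate 2 of either group, or L-cDC2 replicate 3, omitted). Cacnb3 there was 0.11 with array weights and with both replicates 3 left out, and -0.10 to 0.11 leaving out libraries (above 0 with L-cDC2 replicate 1 omitted and with M-cDC2 replicate 3 omitted). Il4i1 there was -0.044 with TMM factors and -0.040 to 0.15 leaving out libraries (below 0 with replicate 2 of either group, or M-cDC2 replicate 1, omitted). With CDP-cDC2 minus M-cDC2, Il4i1 was -0.0012 with a pseudocount of 5, -0.041 with TMM factors and -0.065 to 0.13 leaving out libraries (below 0 without CDP-cDC2 replicate 2 or M-cDC2 replicate 1 or 2), and Cd83 was -0.28 to 0.11 (above 0 without CDP-cDC2 replicate 1). With CLP-cDC2 minus CDP-cDC2, Cd80 was -0.30 to 0.093 (above 0 without CDP-cDC2 replicate 2). Irf4 there was 0.052 with array weights, 0.093 with CDP-cDC2 replicate 3 and M-cDC2 replicate 3 both left out, and -0.17 to 0.093 leaving out libraries (above 0 without CDP-cDC2 replicate 3).

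Replicate numbers mark no shared animal in the labels, and 0 of 3 L-cDC2 and 2 of 3 CLP-cDC2 libraries correlated best with their own number. Ccl17 (0 to 37 reads) was too low at this depth for a test with the main filter.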

Other observations

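After group means were subtracted, the protein-coding genes closest to Ccr7 over the 12 libraries were Snrnp70 (Pearson r 0.88), Slc3a2 (0.87), Nfkbil1 (0.86) and Haus5 (0.84), and none of these was among the 8 genes closest to it before the subtraction. Snrnp70 encodes a protein of the U1 splicing particle and Slc3a2 the heavy chain of amino acid transporters. Ltb4r1, the leukotriene B4 receptor, also followed Ccr7 within groups (0.84). It averaged 2.097 FPKM in CLP-cDC2, 10.4 FPKM in CDP-cDC2, 2.05 FPKM in L-cDC2 and 9.15 FPKM in M-cDC2 (n = 3 each), with its 2 lowest means in CLP-cDC2 and L-cDC2. These are descriptions of 12 libraries with the highest values of 5791 candidates picked out.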
